A study of Homo sapiens with 6 samples.

Results

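The 10 genes described here encode kinases, cyclins and phosphatases that take a human cell from G2 into mitosis, with 1 transcription factor of that step: CDK1, CCNB1, CCNB2, CDC25B, CDC25C, PLK1, WEE1, PKMYT1, FOXM1 and CCNF. They were taken by their symbols, not by any measured value, from the 42972 gene symbols counted in either of the experiments of the study. All 10 were counted in both and passed the filter on low values, a mean of 1 CPM or more over the 3 libraries of an experiment, where CPM is the count scaled to the size of the library. The study asked what happens to triple-negative breast cancer (TNBC) cells when CDK16, an atypical cyclin-dependent kinase that works with cyclin Y, is depleted or inhibited. Stranded mRNA libraries were made from MDA-MB-231, a human TNBC cell line, in 6 conditions with 1 library each. In the knockdown experiment, lines stably infected with lentivirus carried either a scramble shRNA or 1 of 2 hairpins against CDK16, CDK16-sh1 and CDK16-sh2, each expressed from a GFP vector and sorted by FACS. In the Reb experiment, cells were exposed for 48 h to DMSO, to 1 μM Reb or to 5 μM Reb, where Reb is rebastinib, a kinase inhibitor that acts on CDK16 and on other kinases such as TIE2.

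Entry into mitosis is driven by the kinase CDK1 bound to a B-type cyclin. WEE1 and PKMYT1 hold this complex inactive by phosphorylating CDK1 near its ATP site, the CDC25 phosphatases remove these phosphates, and PLK1 helps by activating CDC25C and by marking WEE1 for destruction. Most of these genes are transcribed late in the cell cycle, through FOXM1 and the MuvB complexes, and CCNF is the F-box cyclin of an SCF ubiquitin ligase that is most abundant in G2.

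Genes of this group are known for a short promoter element, the cell cycle genes homology region (CHR), and for CCAAT boxes next to it. Promoter windows from 250 bases before to 50 bases after the transcription start were taken from RefSeq on GRCh38.p14, where 7 of the 10 members were matched, while WEE1, PKMYT1 and FOXM1 were not analysed here. The motif TTTGAA, searched on both strands, was in 4 of the 7 windows and in 15.4% of 27305 promoters of the same length, and TTCGAA was in 1 of the 7 and in 1.45%. CCAAT was in 5 of the 7 and in 35.7% of all promoters, and was present at least 2 times in 3 of the 7 and in 11.3%. Of the E2F-like motifs, TTCGCGC was found in the windows of CDK1 and CCNB1 and in 2.3% of all promoters, and TTTGGCGC and TTTCCCGC were found in none of the 7. Only 1 window per gene symbol was searched, so any other transcription start of a gene was not examined. No matches overlapped in the members' windows, and CDC25B and CDC25C had no CHR or CCAAT match in theirs. These windows are shown because they hold the CHR matches, with the CCAAT boxes of CCNB1 for comparison. All lie on the plus strand with the motif in capitals, and the distance runs from the first base of the motif to the start.
CDK1, 161 bases before the start, chr10:60778158-60778187: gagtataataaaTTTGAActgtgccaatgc
CCNB2, 29 bases before the start, chr15:59105105-59105134: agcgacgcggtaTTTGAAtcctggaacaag
PLK1, 29 bases before the start, chr16:23678848-23678877: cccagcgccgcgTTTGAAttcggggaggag
CCNF, 85 bases before the start, chr16:2429350-2429379: gggccgggtgcgTTTGAAaactggggtggg
CCNF, 233 bases before the start, chr16:2429202-2429231: cagcggccaatgTTCGAAttcgcgtcctgg
CCNB1, 87 bases before the start, chr5:69167051-69167080: gaccggcagccgCCAATgggaagggagtga
CCNB1, 55 bases before the start, chr5:69167083-69167112: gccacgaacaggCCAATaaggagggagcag

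The study designed qPCR primers for 3 of the members, and they are shown because they mark the exons that its second assay of these transcripts reads. By that assay it reported CCNB1, CDK1 (as CDC2) and CDC25C lower after CDK16 knockdown. All lie in coding exons on GRCh38 and were located by exact match to GENCODE 29 transcripts. The CCNB1 pair lies in exons 3 and 5 and matches 3 of 7 transcripts, the CDK1 pair lies in exons 3 and 4 and matches 7 of 9, and the CDC25C pair lies in exons 8 and 9 and matches 7 of 10.
CCNB1 forward, chr5:69168321-69168342: aactttcgcctgagcctatttt
CCNB1 reverse, chr5:69174252-69174272: ttggtctgactgcttgctctt
CDK1 forward, chr10:60784738-60784760: aaactacaggtcaagtggtagcc
CDK1 reverse, chr10:60785667-60785687: tcctgcataagcacatcctga
CDC25C forward, chr5:138292089-138292108: aagtggcctatatcgctccc
CDC25C reverse, chr5:138290664-138290685: ccctggttagaatcttcctcca

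Total counts ranged from 25838443 to 50303269 per library. CDK16, the targeted gene, had 3223 counts with the scramble shRNA, 1360 with CDK16-sh1 and 846 with CDK16-sh2, log2 changes of −1.52 and −1.82. The libraries showed the mesenchymal TNBC markers VIM, CD44 and AXL at 31.8 RPKM or more, ESR1, PGR and CDH1 at 0.174 RPKM or less, and the leukocyte and endothelial markers PTPRC and PECAM1 at 0.395 RPKM or less, whereas ERBB2 and EPCAM lay between 1.55 and 6.54 RPKM. Mitochondrial transcripts took 16.2% of the counts with CDK16-sh2 and 16.4% with 5 μM Reb, against 7.19% to 11.3% in the other libraries, and the 100 most abundant genes took 31.3% and 35.3%, against 24.3% to 25.8%. The shares of the library with 1 μM Reb lay within the latter ranges. The part of these shares in the results was not tested, beyond a scaling with mitochondrial genes left out that is given at the end.

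CCNB1, the main mitotic cyclin, was the most abundant member per length of transcript in 5 of the 6 libraries, and WEE1 was the least abundant in the same 5. RPKM is the count scaled to the exon length of the gene and the size of the library. With the scramble shRNA, CCNB1 was at 92.7 RPKM, followed by FOXM1 at 37.6, CDC25B at 36.9, PLK1 at 28.9, CCNB2 at 21.9, CDK1 at 19.2, PKMYT1 at 12.02, CCNF at 5.12, CDC25C at 5.11 and WEE1 at 2.39. The exact Poisson 95% intervals of neighbours in this order overlapped for FOXM1 with CDC25B and for CCNF with CDC25C, and those of the other neighbours did not. With DMSO the order was CCNB1 at 75.4 RPKM, CCNB2 at 29.6, CDC25B at 27.3, FOXM1 at 26.5, PLK1 at 23.5, CDK1 at 14.4, PKMYT1 at 9.31, CCNF at 4.57, CDC25C at 4.55 and WEE1 at 1.20, with overlapping intervals for CDC25B with FOXM1 and for CCNF with CDC25C. The control libraries come from separate experiments whose tables were normalised separately, and between them the largest difference was in WEE1, at a log2 ratio of DMSO to scramble of −0.9995, with a median absolute ratio of 0.39 over the 10 members.

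With 5 μM Reb the order was different. FOXM1 came first at 12.1 RPKM, followed by CDK1 at 7.74, CCNB2 at 7.02, CCNB1 at 3.92, PLK1 at 3.08, CDC25B at 2.01, PKMYT1 at 1.33, CDC25C at 0.619, WEE1 at 0.201 and CCNF at 0.156. The intervals overlapped for CDK1 with CCNB2 and for WEE1 with CCNF. CCNB1 made up 34.9% of the summed RPKM of the 10 members with DMSO, 35.0% with 1 μM Reb and 10.3% with 5 μM Reb, while FOXM1 took 12.2%, 12.3% and 31.7% and CDK1 took 6.68%, 7.75% and 20.3%. The sum itself was 216.4 RPKM with DMSO, 180.8 with 1 μM Reb and 38.2 with 5 μM Reb. In the knockdown experiment it was 261.8 RPKM with the scramble shRNA, 254.1 with CDK16-sh1 and 202.7 with CDK16-sh2. CCNB1 made up 35.4%, 33.4% and 36.8% of it. RPKM is scaled by library totals, under which the median log2 change of all tested genes was −0.75 with 5 μM Reb and −0.18 with CDK16-sh2. That median was 0.05 with 1 μM Reb and −0.03 with CDK16-sh1. The sums were not corrected for these shifts.

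**Figure D1:**
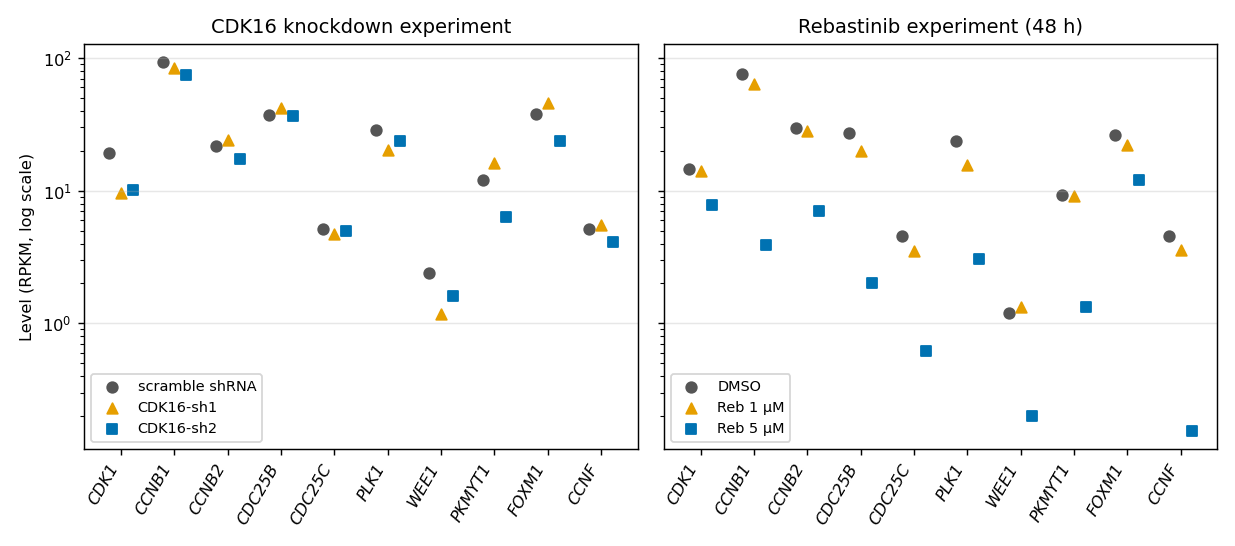
Level of each member in RPKM on a log axis, with 1 point per library, in the knockdown experiment on the left and the Reb experiment on the right. CCNB1 is highest in every library but that of 5 μM Reb, where FOXM1 is highest at 12.1 RPKM and CCNF is lowest at 0.156 RPKM.

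The contrast that moved the members most was 5 μM Reb against DMSO, where 8 of the 10 members were at least 2-fold lower and none was at least 2-fold higher. Of all 15655 genes tested, 27.2% were at least 2-fold lower and 23.6% at least 2-fold higher in that contrast. The median log2 change of the members was −2.14, against −0.07 over all genes. With 1 μM Reb none of the members passed 2-fold, where 1.92% of genes were lower and 1.28% higher by that much, and the median of the members was −0.30. With CDK16-sh1 and with CDK16-sh2 none passed 2-fold either, against 6.86% of 15295 genes lower and 4.33% higher in the first and 7.62% lower and 2.2% higher in the second, and the medians of the members were 0.03 and −0.14.

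Changes are log2 ratios of counts scaled by edgeR's TMM method, with a prior count of 2. Intervals are exact 95% Clopper-Pearson intervals of the pair of counts. They cover counting error only, and with 1 library per condition no single change has a replicate check. Where copies of 1 molecule were counted as separate ones, the intervals are too narrow even for counting error. The interval lay wholly below 0 for all 10 members with 5 μM Reb, against 45.6% of genes, and above 0 for none, against 42.6%. With 1 μM Reb it lay below 0 for 8, against 32.9%, and above 0 for none, against 32.0%. It lay below 0 for 4 members with CDK16-sh1 and 7 with CDK16-sh2, against 37.3% and 32.6% of genes, and above 0 for 5 and 1, against 36.9% and 35.0%. In whole-culture RNA, a change in the share of cells in G2 and mitosis and a change in these transcripts per cell cannot be told apart. By flow cytometry the study reported G2/M arrest of TNBC cells after CDK16 knockdown, and these libraries do not measure that share.

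**Figure D2:**
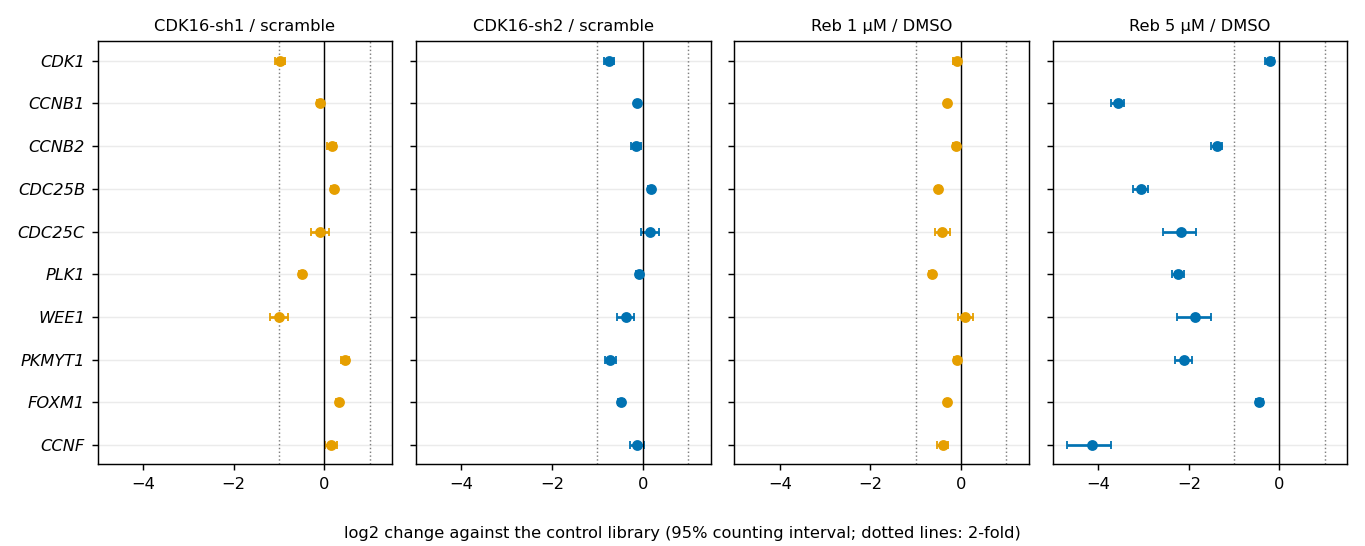
Log2 change of each member against the control library of its experiment, with 1 panel per treated library. Points are TMM-scaled log2 ratios, bars are 95% counting intervals and dotted lines mark 2-fold. All 10 members lie below 0 with 5 μM Reb, from −0.21 for CDK1 to −4.14 for CCNF, and in the other panels no member passes 2-fold.

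CDK1, the catalytic subunit, lies on chromosome 10 from 60778331 to 60794852. It had 1952 counts with the scramble shRNA, 1201 with CDK16-sh1 and 1089 with CDK16-sh2. In the Reb experiment it had 2857 counts with DMSO, 2720 with 1 μM and 1145 with 5 μM. Both hairpin libraries were below the scramble library, with log2 changes of −0.98 (interval −1.08 to −0.87) and −0.73 (interval −0.84 to −0.63). Against DMSO the changes were only −0.09 with 1 μM and −0.21 (interval −0.31 to −0.11) with 5 μM. By TMM CDK1 was the member with the smallest change at the higher dose and, with WEE1, 1 of the 2 with the largest changes with CDK16-sh1. Its value at 5 μM depended on scaling: it was −0.90 when libraries were scaled by their totals and −1.11 after removal of the trend on expression, length and GC content, where FOXM1 had the smallest change at −0.55.

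CCNB1, on chromosome 5 from 69167010 to 69178245, encodes cyclin B1. It had 9706 counts with DMSO, 7991 with 1 μM Reb and 378 with 5 μM Reb, and 6125, 6930 and 5242 with the scramble shRNA, CDK16-sh1 and CDK16-sh2. The library with 5 μM Reb stood far below the others, 11.9-fold below DMSO at a log2 change of −3.57 (interval −3.73 to −3.43), while 1 μM gave −0.30. The hairpins gave −0.10 and −0.12, both with intervals below 0. These were −0.32 and −0.35 with the trend on expression and length removed, and CDK16-sh2 gave −0.31 under library totals.

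CCNB2, on chromosome 15 from 59105078 to 59125045, encodes the other main B-type cyclin. It had 4175 counts with DMSO, 3907 with 1 μM Reb and 740 with 5 μM Reb, log2 changes of −0.12 and −1.39 (interval −1.50 to −1.27). It was thus 2.61-fold lower at the higher dose, a smaller change than that of CCNB1. With the hairpins it had 2148 and 1326 counts against 1582 with the scramble shRNA, and it lay above the control with CDK16-sh1 at 0.16 and below it with CDK16-sh2 at −0.15. The first of these values turned to −0.04 once the trend on expression and length was removed.

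CDC25B, on chromosome 20 from 3786772 to 3806121, encodes the phosphatase that starts CDK1 activation. It had 5914 counts with DMSO, 4244 with 1 μM Reb and 327 with 5 μM Reb, log2 changes of −0.50 and −3.06 (interval −3.23 to −2.91), the latter 8.36-fold lower. The doses were thus ordered below DMSO. With the scramble shRNA, CDK16-sh1 and CDK16-sh2 it had 4117, 5772 and 4314 counts, changes of 0.21 and 0.17. Neither small difference held its sign in all settings: CDK16-sh1 gave −0.13 after removal of the trend on expression, length and GC, and CDK16-sh2 gave −0.02 under library totals.

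CDC25C, on the minus strand of chromosome 5 from 138285265 to 138338355, encodes the phosphatase that PLK1 activates. It had 697 counts with DMSO, 531 with 1 μM Reb and 71 with 5 μM Reb, log2 changes of −0.41 and −2.17 (interval −2.56 to −1.83). The hairpin libraries had 456 and 417 counts against 402 with the scramble shRNA. Their changes of −0.09 and 0.16 both had intervals that include 0, and the second was −0.04 under library totals, so no difference was detectable at this depth. The qPCR of the study, in contrast, reported CDC25C lower after CDK16 knockdown. The gene shares 293 exon bases with FAM53C on the other strand, so its values carry the uncertainty described for PKMYT1. FAM53C had 1244, 1375 and 1082 counts in the knockdown libraries and 1475, 1627 and 355 in those of Reb, more than CDC25C in each.

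PLK1, on chromosome 16 from 23677656 to 23690367, encodes the polo-like kinase. It had 5631 counts with DMSO, 3654 with 1 μM Reb and 552 with 5 μM Reb. Its change of −0.65 (interval −0.71 to −0.59) was the lowest of the members at 1 μM, and at 5 μM it was −2.24 (interval −2.37 to −2.12). With the scramble shRNA, CDK16-sh1 and CDK16-sh2 it had 3552, 3069 and 3121 counts, changes of −0.49 and −0.08, so the library of CDK16-sh1 was the lower of the pair. PLK1 shares 42 of its 4760 exon bases with ERN2 on the other strand, which had 24 counts or fewer in every library, and 553 with AC008870.3, which was not analysed here, so its values carry the uncertainty described for PKMYT1.

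WEE1, on chromosome 11 from 9573681 to 9593457, encodes the nuclear kinase that restrains CDK1. It had 571 counts with the scramble shRNA, 346 with CDK16-sh1 and 408 with CDK16-sh2, log2 changes of −0.99 (interval −1.20 to −0.80) and −0.38 (interval −0.56 to −0.19). After removal of the trend on expression, length and GC these were −0.49 and −0.02. In the Reb experiment it had 556 counts with DMSO, 603 with 1 μM and 70 with 5 μM. The lower dose gave 0.09 with an interval that includes 0, and the higher dose −1.86 (interval −2.26 to −1.52). WEE1 was thus the only member above its DMSO value at 1 μM, and that value was −0.07 after removal of the same trend, under which PKMYT1 was above it instead.

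PKMYT1, on the minus strand of chromosome 16 from 2968024 to 2980539, encodes the membrane-bound kinase of the same function. It had 1564 counts with the scramble shRNA, 2613 with CDK16-sh1 and 884 with CDK16-sh2, log2 changes of 0.46 (interval 0.37 to 0.56) and −0.72 (interval −0.84 to −0.60). The scramble library lay between the hairpins, and the value of CDK16-sh1 was −0.03 after removal of the trend on expression, length and GC. In the Reb experiment it had 2357 counts with DMSO, 2268 with 1 μM and 252 with 5 μM, changes of −0.08 with an interval that includes 0 and −2.11 (interval −2.31 to −1.93). The former was 0.09 under that removal. The values of PKMYT1 are uncertain, because 1233 of its 5034 exon bases are shared with PAQR4 on the other strand and the strand setting of the counting is not given in the sources used here. A further 360 are shared with KREMEN2, which had 125 counts or fewer in every library. PAQR4 had 804, 1692 and 512 counts in the knockdown libraries and 1739, 2060 and 223 in those of Reb.

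FOXM1, on the minus strand of chromosome 12 from 2857681 to 2877155, encodes the transcription factor of the G2 and M genes. It had 6533 counts with DMSO, 5376 with 1 μM Reb and 2229 with 5 μM Reb. The log2 changes were −0.30 and −0.44 (interval −0.51 to −0.37), so the doses differed little by TMM. Under library totals the higher dose gave −1.13, past 2-fold. With the scramble shRNA, CDK16-sh1 and CDK16-sh2 it had 4761, 7212 and 3178 counts, changes of 0.32 and −0.48 on opposite sides of the control. FOXM1 shares 781 of its 4899 exon bases with ITFG2 on the other strand, which had 1071, 1779 and 960 counts in the same libraries, so its values too are uncertain.

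CCNF, on chromosome 16 from 2429394 to 2458854, encodes cyclin F. It had 1450 counts with DMSO, 1111 with 1 μM Reb and 37 with 5 μM Reb, log2 changes of −0.41 and −4.14 (interval −4.70 to −3.71). The latter was 17.7-fold lower, the lowest value of the members, and 37 was the lowest count of any member in any library. With the hairpins it had 1117 and 710 counts against 834 with the scramble shRNA, changes of 0.14, which was −0.07 after removal of the trend on expression, length and GC, and −0.13 with an interval that includes 0. CCNF shares 219 and 527 of its 6309 exon bases with AC106820.5 and AC106820.6 on the other strand, which were not analysed here, and carries the same uncertainty.

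The libraries of the 2 doses and of the 2 hairpins were also compared with each other. All 10 members were lower with 5 μM than with 1 μM Reb beyond counting error, against 45.1% of genes lower and 42.3% higher, by log2 differences from −0.12 in CDK1 and −0.14 in FOXM1 to −3.27 in CCNB1 and −3.74 in CCNF. In alternatives chosen after seeing the data, 8 of the 10 were lower under DESeq2 size factors. CDK1 at −0.05 and FOXM1 at −0.07 then had intervals that include 0. Under library totals, in contrast, CDK1 was at −0.86 and FOXM1 at −0.88. With the trend on expression, length and GC removed they were at −0.88 and −0.32. Between the hairpins the members split, and the numbers by TMM that follow became 6 lower and 2 higher under library totals. The shares of all genes were computed by TMM only. With CDK16-sh2 4 were lower than with CDK16-sh1, against 37.5% of genes, namely PKMYT1 by −1.18, FOXM1 by −0.80, CCNB2 by −0.31 and CCNF by −0.27 on the log2 scale. The other 4 with intervals clear of 0 were higher, against 37.4% of genes, namely WEE1 by 0.62, PLK1 by 0.41, CDC25C by 0.25 and CDK1 by 0.24. CCNB2, PKMYT1 and FOXM1 lay on opposite sides of the scramble library with the 2 hairpins, both intervals clear of 0, which held for 3 of 10 members and 16.1% of all genes. With CDK16-sh1 this side of the control was not kept by PKMYT1, at −0.03 with the trend on expression, length and GC removed, nor by CCNB2, at −0.04 with that on expression and length removed, and FOXM1 was at 0.13 in the former setting. No member lay on opposite sides of DMSO with the doses in this sense, against 20.5% of genes.

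The changes moved with GC content in both experiments. Across the tested genes with a known GC content, 84.6% of all, the Pearson r between change and GC was 0.48 for CDK16-sh1, with a median log2 change of −0.42 in the 20% of genes with the least GC and of 0.42 in the 20% with the most, against an r of 0.13 and medians of −0.14 and 0.11 for CDK16-sh2. Genes of 1 library are not independent replicates. CDK1 and WEE1, at 37.0% and 37.9% GC, had the lowest changes among the members with CDK16-sh1, and PKMYT1, at 66.2%, had the highest. With the trend on expression, length and GC removed CDK1 was at −0.73 with CDK16-sh1 and −0.72 with CDK16-sh2. For 1 μM and 5 μM Reb the r was −0.30 and −0.22 over the 84.3% of genes with a known GC content, and the medians in the same fractions of genes were 0.14 and −0.19 and, over a wider range than with CDK16-sh1, 0.41 and −0.59.

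**Figure D3:**
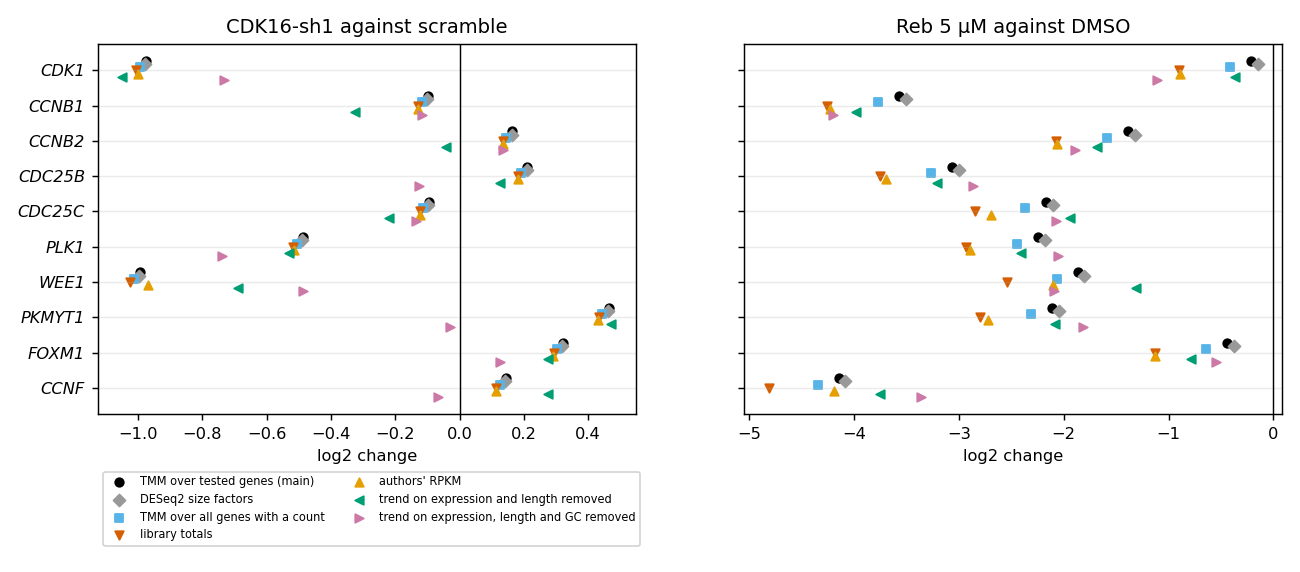
Log2 change of the members with CDK16-sh1 on the left and with 5 μM Reb on the right, under the main scaling and 6 other ways of processing. The x axes differ. On the left, CCNB2, CDC25B, PKMYT1 and CCNF reach values below 0 in 1 setting each. On the right every value is below 0, with CDK1 between −0.15 and −1.11.

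A ratio of 2 members within a library does not depend on how the library is scaled, but it can move with the trends on expression, length and GC content when the members differ in these. The ratio of CCNB1 to CDK1, cyclin to kinase, was 5.22 in RPKM with DMSO, 4.51 with 1 μM Reb and 0.507 with 5 μM Reb, a log2 change of −3.36 (interval −3.54 to −3.19) or 10.3-fold at the higher dose. In the knockdown experiment it was 4.82 with the scramble shRNA, 8.87 with CDK16-sh1 and 7.40 with CDK16-sh2, changes of 0.88 (interval 0.76 to 0.99) and 0.62 (interval 0.50 to 0.74). The ratio was thus higher with both hairpins and lower with both doses, beyond counting error, and it kept these directions with the trend on expression, length and GC removed, at 0.62 and 0.41 and at −0.10 and −3.09. The ratio of CCNB2 to CCNB1 was 0.393 with DMSO and 1.79 with 5 μM Reb, a log2 change of 2.19 (interval 2.00 to 2.37), so CCNB2 was the more abundant B-type cyclin transcript per length only in that library.

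The balance of activating phosphatase to inhibitory kinase was read in the same way. The ratio of CDC25B to WEE1 was 15.4 with the scramble shRNA, 35.7 with CDK16-sh1 and 22.6 with CDK16-sh2, log2 changes of 1.21 (interval 1.01 to 1.41) and 0.55 (interval 0.36 to 0.75). It was 22.8 with DMSO, 15.1 with 1 μM Reb and 10.0 with 5 μM Reb, changes of −0.60 (interval −0.77 to −0.42) and −1.19 (interval −1.58 to −0.79). CDC25C to WEE1 changed by 0.90 and 0.54 on the log2 scale with the hairpins and by −0.51 and −0.31 with the doses, and PLK1 to WEE1 by 0.51 and 0.30 and by −0.74 and −0.36. For the latter pair of ratios the interval included 0 at 5 μM. The ratios to WEE1 in the hairpin libraries depended on the trends across genes, whose removal from ratios was an alternative chosen after seeing the data. With the trend on expression, length and GC removed, CDC25B to WEE1 was at 0.36 and 0.04, CDC25C to WEE1 at 0.35 and 0.19, and PLK1 to WEE1 was reversed at −0.25 and −0.18. With the doses CDC25B to WEE1 was then at −0.31 and −0.78, while CDC25C to WEE1 and PLK1 to WEE1 were at 0.01 and 0.03 with 5 μM. Against PKMYT1 the hairpins differed in direction, since CDC25C to PKMYT1 changed by −0.56 and 0.88 and PKMYT1 to WEE1 by 1.46 and −0.34, or by −0.11 and 0.96 and by 0.46 and −0.76 with the same trend removed. Both hairpins share the scramble library and both doses share the DMSO library, so their values are not independent of each other.

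**Figure D4:**
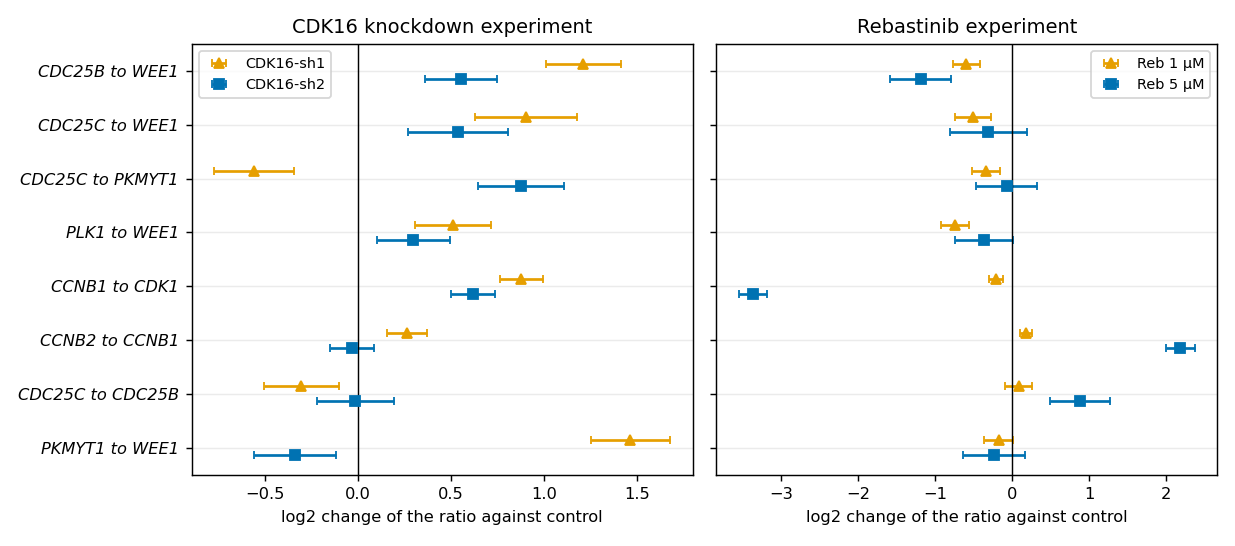
Log2 change of the ratio between 2 members of the same library, against the ratio in the control library, with 95% counting intervals. The x axes differ. The ratio of CCNB1 to CDK1 lies at 0.88 and 0.62 with the hairpins and at −0.21 and −3.36 with 1 μM and 5 μM Reb.

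A test across all genes needs a spread, and with 1 library per condition the 2 treated libraries of an experiment had to be taken as 1 group, so that the difference between hairpins or doses counts as the spread. In the quasi-likelihood test of edgeR, adjusted after Benjamini-Hochberg and called at an adjusted p of at most 0.05 and a fold of at least 2, none of the members was called for the hairpins, where 0.0% of genes were called in either direction, 382 genes had an unadjusted p under 0.05 and the smallest adjusted p was 0.195. DESeq2 called none either, with 233 genes at an unadjusted p under 0.05. For Reb the same test called 1 gene lower, 0.00639%, and 11 higher, 0.0703%, with 228 genes at an unadjusted p under 0.05, and no member was among them. DESeq2 called 4 lower, 0.0256%, and 13 higher, 0.083%, with 312 at an unadjusted p under 0.05, again no member.

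With dose as a linear term, on the scale of log2(dose + 1), edgeR called 6 of the 10 members lower, against 11.1% of genes called lower and 13.3% called higher. These were CCNF (adjusted p = 0.000187), CCNB1 (adjusted p = 0.000423), CDC25B (adjusted p = 0.000767), PLK1 (adjusted p = 0.00657), PKMYT1 (adjusted p = 0.0124) and CDC25C (adjusted p = 0.0231). WEE1 at an adjusted p of 0.0559, CCNB2 at 0.0812, FOXM1 at 0.628 and CDK1 at 0.818 were not called. The call rests on 3 libraries, with the departure from a straight line as its spread.

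Other genes of the pathway were taken from 6 lists, with values by TMM unless another scaling is named. These values were not examined with the trend on expression, length and GC removed. That removal took 7 of the 10 members outside their counting intervals with CDK16-sh1, 5 with CDK16-sh2, 6 with 1 μM Reb and 8 with 5 μM Reb. The median of 10 partners and activators of CDK1 was −0.37 with 5 μM Reb, or −1.05 under library totals. At that dose 4 of the 10 were at least 2-fold lower and none higher, beside 27.2% and 23.6% of all genes. They were CCNA2, the S and G2 cyclin, at −2.70 (4161, 3178 and 296 counts with DMSO, 1 μM and 5 μM), CDK2, its S phase kinase, at −2.44, CDC25A at −1.24 and AURKA, the kinase that activates PLK1, at −1.14. CDK7, the kinase of the CDK-activating complex, was at 0.08, with an interval that includes 0, and at 0.44 with the doses. In the knockdown experiment none of the list passed 2-fold, where 6.86% and 7.62% of all genes were lower and 4.33% and 2.2% higher. The medians were −0.34 and −0.28. CDK2 was at −0.82 and −0.53 with the hairpins and AURKA at −0.73 and −0.48, while CCNH and CDK7 were above the control, at 0.51 and 0.49 and at 0.32 and 0.48.

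Greatwall, the kinase encoded by MASTL, acts through ENSA and ARPP19 to inhibit the phosphatase PP2A-B55, which opposes CDK1. MASTL had 2214 counts with DMSO, 2223 with 1 μM Reb and 275 with 5 μM Reb. Its changes were −0.02, with an interval that includes 0, and −1.90, and it was at −0.65 and −0.69 with the hairpins. It was the only 1 of 9 genes of this list at least 2-fold lower with 5 μM Reb, beside 27.2% of all genes. Those at least 2-fold higher, beside 23.6% of all genes, were PPP2CA at 2.92, ARPP19 at 2.82, PPP2CB at 2.20, PPP2R2D at 1.06 and ENSA at 1.05. The median was 1.05, or 0.36 under library totals. ARPP19 had 3838, 4173 and 12577 counts with DMSO, 1 μM and 5 μM. PPP2R1A and PPP2R2D, a scaffold and a B55 subunit of the phosphatase, were at 0.19 and 0.31 and at 0.40 and 0.14 with the hairpins. The interval of PPP2R2D with CDK16-sh2 included 0. PPP2CB, a catalytic subunit, was at −0.36 with CDK16-sh1 and −1.07 with CDK16-sh2. It was the only gene of the list past 2-fold with a hairpin, beside 7.62% of all genes lower with CDK16-sh2.

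The list of the G2 checkpoint and of proteins that restrain CDC25 or CDK1 had 4 of 15 genes at least 2-fold lower and 5 at least 2-fold higher at 5 μM, beside the 27.2% and 23.6% of all genes. Its median was 0.32, or −0.37 under library totals. GADD45A, a stress gene whose product binds CDK1, had 3759, 5618 and 20283 counts with DMSO, 1 μM and 5 μM, changes of 0.56 and 3.54, and it was at 0.69 and 0.43 with the hairpins. SFN, the 14-3-3 sigma gene, was at 0.24 and 2.93 with the doses, and YWHAZ, the 14-3-3 zeta gene, at −0.07 and −0.75. CDKN1A, the p21 inhibitor, had 1666, 670 and 270 counts, changes of −1.33 and −1.51. It was the 1 gene of the list past 2-fold at 1 μM, where 1.92% of all genes were that much lower. The checkpoint kinase genes ATM and ATR were at −0.88 and −0.53 and at −1.14 and −0.25 with the hairpins.

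Of 10 genes of the MuvB and DREAM complexes, which repress these promoters in resting cells and activate them later, 4 were at least 2-fold lower with 5 μM Reb, 4 with CDK16-sh1 and 3 with CDK16-sh2, beside 27.2%, 6.86% and 7.62% of all genes, and none was at least 2-fold higher in any contrast. LIN54, the subunit that binds the CHR, was at −1.29 and −1.09 with the hairpins and RBL1, encoding the pocket protein p107, at −1.08 and −1.28. With the doses RBL1 was at −0.39 and −2.05. E2F4 was at 0.42 and 0.37 with the hairpins and at −0.22 and −0.73 with the doses. LIN37, another MuvB subunit, was at 0.66 and 0.08 with the hairpins. The doses gave 0.22 and 0.12 for RBL2 and 0.09 and 0.48 for TFDP1, the partner of the E2F factors. The intervals of LIN37 with CDK16-sh2 and of RBL2 with 5 μM Reb included 0. The medians were 0.04 and −0.46 with the hairpins and 0.07 and −0.72 with the doses. Under library totals that of CDK16-sh2 was −0.66 and that of 5 μM Reb −1.41.

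Other genes expressed in G2 and M were lower with 5 μM Reb in 10 of 16 cases by at least 2-fold, beside 27.2% of all genes. The median of this list was −1.67, or −2.36 under library totals. At that dose the interval lay below 0 for 14 of the 16 and above 0 for 2, beside 45.6% and 42.6% of all genes. The 2 above were PRC1 at 0.28 and KIF23 at 0.08. AURKB, the kinase of the chromosomal passenger complex, had 3954, 1997 and 78 counts with DMSO, 1 μM and 5 μM, changes of −1.01 and −4.54. CDC20, the activator of the anaphase-promoting complex, was at −0.89 and −1.17. In the knockdown experiment TOP2A, the topoisomerase that untangles chromosomes, had 13080, 6660 and 5071 counts, changes of −1.25 and −1.26, and BUB1 was at −0.62 and −0.70. The medians with the hairpins were −0.40 and −0.33.

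Genes expressed at G1/S, taken for comparison, were at least 2-fold lower in 11 of 12 cases with 5 μM Reb, beside 27.2% of all genes. The median of this list was −1.77 beside −2.14 for the members, so a lower level at this dose was not seen in the members alone. Under library totals these medians were −2.46 and −2.82. RRM2, a subunit of ribonucleotide reductase, was at −0.47 and −3.64 with the doses and MCM7, a subunit of the replicative helicase, at −0.44 and −1.13. At 1 μM the median of this list was 0.19, beside −0.30 for the members. With CDK16-sh2 its median was −0.81, beside −0.14 for the members, and all 12 intervals lay below 0, against 32.6% of genes. CCNE2 and CDC6, a cyclin E gene and a gene of replication licensing, were at −1.73 and −0.995 there and at −0.93 and −0.74 with CDK16-sh1. The difference between the lists was not tested.

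**Figure D5:**
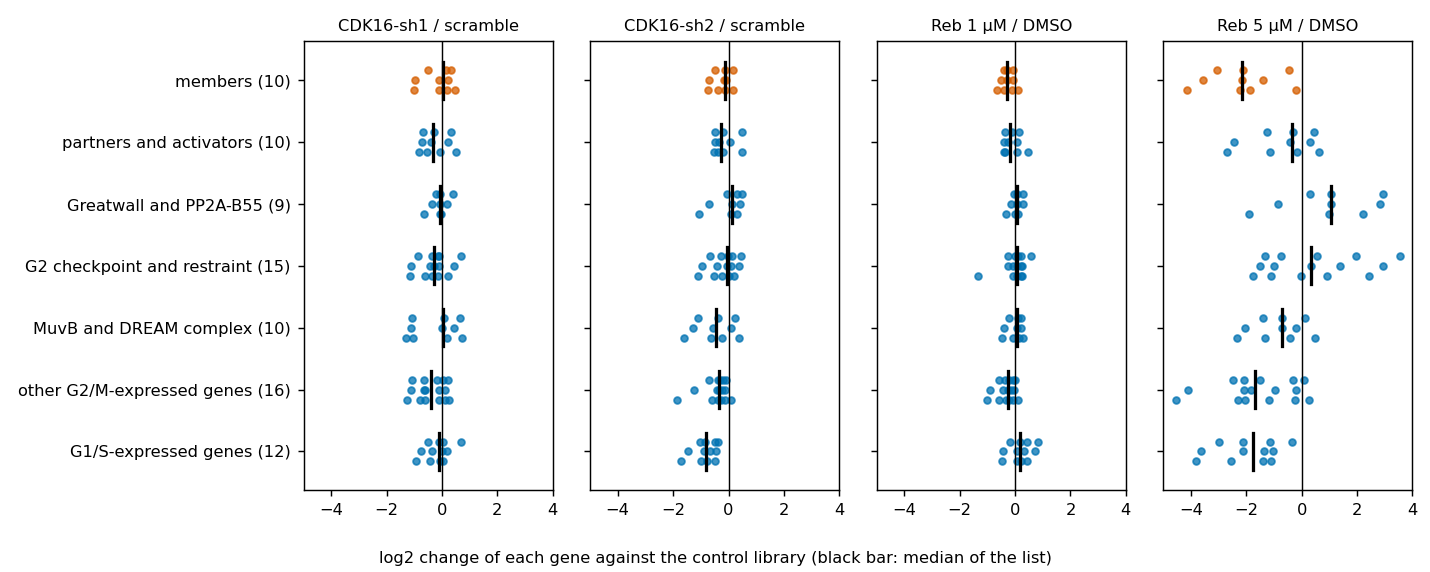
Log2 change of each gene against its control, for the members and the 6 lists, with 1 panel per treated library and the number of genes in parentheses. Black bars are medians. With 5 μM Reb and TMM scaling the medians are −2.14 for the members, −1.67 for other G2/M genes, −1.77 for G1/S genes and 1.05 for Greatwall and PP2A-B55. Under library totals they are −2.82, −2.36, −2.46 and 0.36.

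The genes whose 4 log2 changes lay nearest to the median profile of the members were looked up by Euclidean distance among the 10554 genes that averaged 5 CPM or more in both experiments. The 5 nearest were BACE1 at a distance of 0.111, UBE2Z at 0.116, OGDH at 0.133, ZNF514 at 0.152 and C16orf59 at 0.197. The nearest member was CDC25C, at rank 32 and a distance of 0.338, and the farthest was CDK1, at rank 5033 and a distance of 2.26. All 10 members thus lay farther from their own median profile than these 5 genes did.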

How the data were processed

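Counts were used as the authors deposited them: whole-number reads per gene symbol, not normalized. The deposited RPKM values are the authors' own, and equalled the count divided by exon length and total count within 0.1% for all values above 0. Libraries were stranded mRNA on a Hiseq X 10. The submitters' processing notes name Trimmomatic, featureCounts, Subread 1.5.1 and GRCh38, and the aligner and strand setting are not given in the sources used here. The tables held 41471 and 34157 symbols, of which 28 and 27 had been turned into dates. Totals were 25838443 to 50303269 counts. Analysis used R 4.3.3 with edgeR 4.0.16 and DESeq2 1.42.0, and Python 3.11.15. Genes that averaged 1 CPM or more were tested. Each treated library was compared with its own control, and both treated libraries together by edgeR's quasi-likelihood test. The scripts were tested on simulated data.

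The members, lists and tests were chosen with earlier results of these data known. The genes named are the members, CDK16, and from each list and experiment up to 2 rises and 2 falls, taken among genes that averaged 5 CPM or more and moved the same way in both treated libraries, in the order of the lesser of both changes. Other list genes behind a count were named after their values were seen. Alternatives were DESeq2 size factors, library totals, the authors' RPKM with 0.1 added, a prior count of 0.5, no filter, loess trends, leaving out mitochondrial genes, folds of 1.5 and 4, and dose as a linear term. The trends on ratios, and all settings on differences between treated libraries, were added after seeing the data. Nothing says that the libraries came from separate cultures, so p-values measure only the spread between these libraries.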

Additional observations from a re-analysis of the deposited data

Results flagged for a closer look

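For 3 members the hairpins lay on opposite sides of the scramble library, each beyond counting error, as for 16.1% of all genes, and the difference was not tested because each hairpin has 1 library. PKMYT1 was lower with CDK16-sh2 than with CDK16-sh1 by a log2 difference of −1.18, with 884 counts against 2613. FOXM1 differed by −0.80 in the same direction, with 3178 counts against 7212. CCNB2 differed by −0.31, with 1326 counts against 2148. With CDK16-sh1 PKMYT1 was at −0.03 once the trend on expression, length and GC was removed, and CCNB2 at −0.04 once that on expression and length was, so the opposite sides were kept under every alternative run only by FOXM1.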

How the results depend on the processing

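No paired analysis was possible because each condition has 1 library, and for the same reason no library could be left out. The 5 μM median of the members, −2.14, was −2.82 under library totals, −2.71 by RPKM and −2.34 with no filter, against a shift of −0.68 in the median of all genes under library totals. The CDK16-sh2 median, −0.14, was −0.33 under library totals and −0.33 by RPKM, with a shift of −0.19 in all genes. With mitochondrial genes left out of the scaling these medians stayed at −2.14 with 5 μM Reb and −0.14 with CDK16-sh2. The CDK16-sh1 median, 0.03, was −0.13 without the trend on expression and length and −0.12 without that on GC too. Members at least 2-fold lower with CDK16-sh1 numbered 0, but 2 under library totals, 1 with no filter and 1 without the trend on expression and length, because CDK1 and WEE1 lie near 2-fold. At a 1.5-fold threshold the numbers lower were 2 with CDK16-sh1, 2 with CDK16-sh2 and 1 with 1 μM Reb. The shares of all genes were computed only for the main scaling and the 2-fold threshold. The numbers of members under these alternatives therefore have no background beside them. Dose as a linear term called 6 members lower where the pooled test called 0, since the dose difference no longer counts as spread. The 2-fold count of 8 at 5 μM stayed within 1.5 times under every alternative run. Depth limits CDC25C, WEE1 and CCNF most, with 37 to 71 counts at 5 μM. In settings chosen after seeing the data, PLK1 to WEE1 reversed to −0.25 with CDK16-sh1 and −0.18 with CDK16-sh2 when the trend on expression, length and GC was removed, and to −0.046 with CDK16-sh2 for that on expression and length. Members lower with 5 μM than with 1 μM Reb numbered 8 under DESeq2 size factors and 10 in the other settings.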
